A study of Rattus norvegicus with 12 samples.

Results

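The genes described here are those of the cardiomyocyte, the contractile cell of the heart, as measured in cultures of cardiac fibroblasts. They were chosen by name as 49 genes of the sarcomere, of calcium handling and of cardiomyocyte identity. Of these, 46 were listed among the 12271 genes of the deposited table, and Ttn, Tcap and Xirp1 were not analysed here. A mean of at least 10 normalized counts over the 12 libraries was reached by 44 of them, which entered the tests, while Myh3 and Ckmt2 fell below it.

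Primary cells were isolated from heart ventricles of 2-day-old Sprague Dawley rats by enzymatic dissociation and a Percoll density gradient. They received negative control siRNA, Yap siRNA, Wwtr1 siRNA or Yap + Wwtr1 siRNA (the double knockdown), with 3 libraries per group. An siRNA is a short double-stranded RNA that degrades a matching transcript. Yap (gene Yap1) and Wwtr1 (Taz) are a pair of related coactivators that work with DNA-binding partners such as the TEAD factors. Each siRNA was used at 25 nM. Per the labels RNA was collected 48 h after transfection, while the study's methods add a change of medium before that interval and can be read as a later collection. The negative control was a pair of universal non-targeting siRNAs, and replicates came from separate litters. The siRNA label of the double knockdown names the Wwtr1 siRNAs only, and the design text calls the cells myocytes where the title and sample labels call them cardiac fibroblasts. The cultures are a mixture defined by the isolation and by growth on plastic, not by a sort.

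In the sarcomere, thick filaments of myosin pull on thin filaments of actin, tropomyosin and troponin, which are anchored at the Z-disc, while the M-band holds the thick filaments in register. Contraction starts when calcium enters through the L-type channel and opens the ryanodine receptor of the sarcoplasmic reticulum, and it ends when calcium is pumped back or exchanged out of the cell. Many of these proteins have atrial, ventricular, fetal or skeletal forms, and the heart of a newborn rodent is in the course of exchanging some of its fetal forms for adult ones. The question put to the data was whether these genes moved together, as a different number of cardiomyocytes would give, or by class.

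The cultures held cardiomyocyte transcripts in every library. All 8 defining markers (Myh6, Tnnt2, Tnni3, Mybpc3, Actn2, Ryr2, Pln and Nkx2-5) were above 0 in all 12 libraries, and their summed level ran from 24088 to 58444 normalized counts. The 10 fibroblast markers summed to between 2583690 and 3782240 normalized counts in the same libraries. In bulk RNA, more cells of a type and more RNA per cell cannot be told apart. Means of the 44 tested genes ran from 13.7 to 50135 normalized counts, with 7 genes over 10000, 13 between 1000 and 10000, 20 between 100 and 1000 and 4 below 100. Library totals recovered from the steps of the values ran from 33.9 to 41.1 M units, and what such a unit stands for (a read, a mate or a value derived from coverage) was not tested, so no counting error is given.

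The targeted genes were lower in their groups. Yap1 was 3042, 3776 and 2984 normalized counts under negative siRNA, 532, 576 and 625 under Yap siRNA, and 713, 739 and 1474 in the double knockdown. Wwtr1 was 2364, 2565 and 2280 under negative siRNA, 524, 550 and 637 under Wwtr1 siRNA, and 818, 731 and 1056 under both. Replicate 3 of the double knockdown was the highest of its group for both genes.

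Libraries with the number 3 stood apart for the cardiomyocyte genes. In each of the negative, Yap and Wwtr1 siRNA groups, replicate 3 was the lowest of the 3 libraries for 34 of the 44 genes, against 10.3% of all genes tested. Over the 44 genes, the median log2 difference between replicate 3 and the mean of replicates 1 and 2 was -0.88 under negative siRNA, -0.96 under Yap siRNA and -0.72 under Wwtr1 siRNA, and it was -0.20 in the double knockdown. The 10 genes that did not follow this pattern were Ankrd23, Cacna1c, Cryab, Fabp3, Myh1, Myl4, Myl7, Slc8a1, Tnnt2 and Tpm1. Of these, Tpm1, Cryab, Cacna1c, Slc8a1 and Fabp3 are also transcribed in other cardiac cells. Gja1 and Atp2a2, which are transcribed there too, did follow the pattern. Smooth muscle and myofibroblast markers went the other way, with a median difference of 0.37, 0.27 and 0.27 in the first 3 groups and -0.85 in the double knockdown. Fibroblast markers were lower in replicate 3 too, with medians of -0.38, -0.20 and -0.16, and 0.35 in the double knockdown. Of these 10 markers, 6 were lowest in replicate 3 of all of the first 3 groups. Over all genes, replicate 3 of the double knockdown was the library farthest from its own group: the chi-square per gene, used only as a distance, was 119.8 and 123.9 to the other two libraries, and 19.6 to 49.2 for every other pair of replicates.

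**Figure D1:**
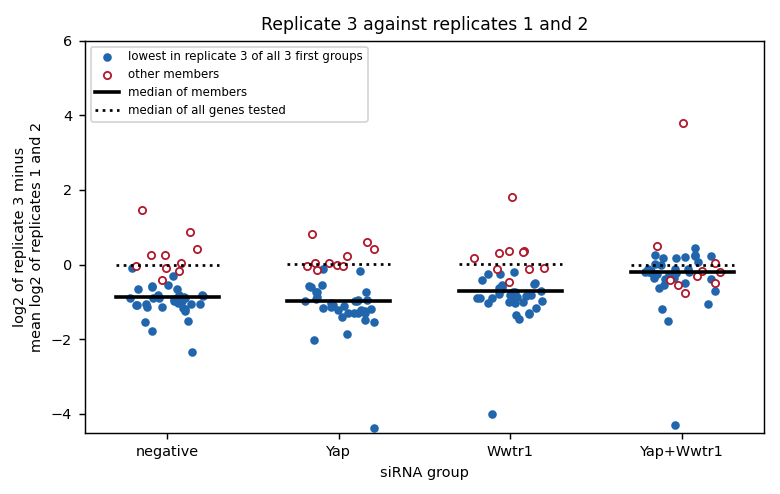
Log2 level of replicate 3 minus the mean log2 level of replicates 1 and 2 (vertical axis) for the 44 tested cardiomyocyte genes in each siRNA group (horizontal axis). Filled points are the 34 genes that were lowest in replicate 3 of the negative, Yap and Wwtr1 groups, open points are the other 10, solid lines are medians of the 44 genes (-0.88, -0.96, -0.72 and -0.20 from left to right) and dotted lines are medians of all genes tested.

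**Figure D2:**
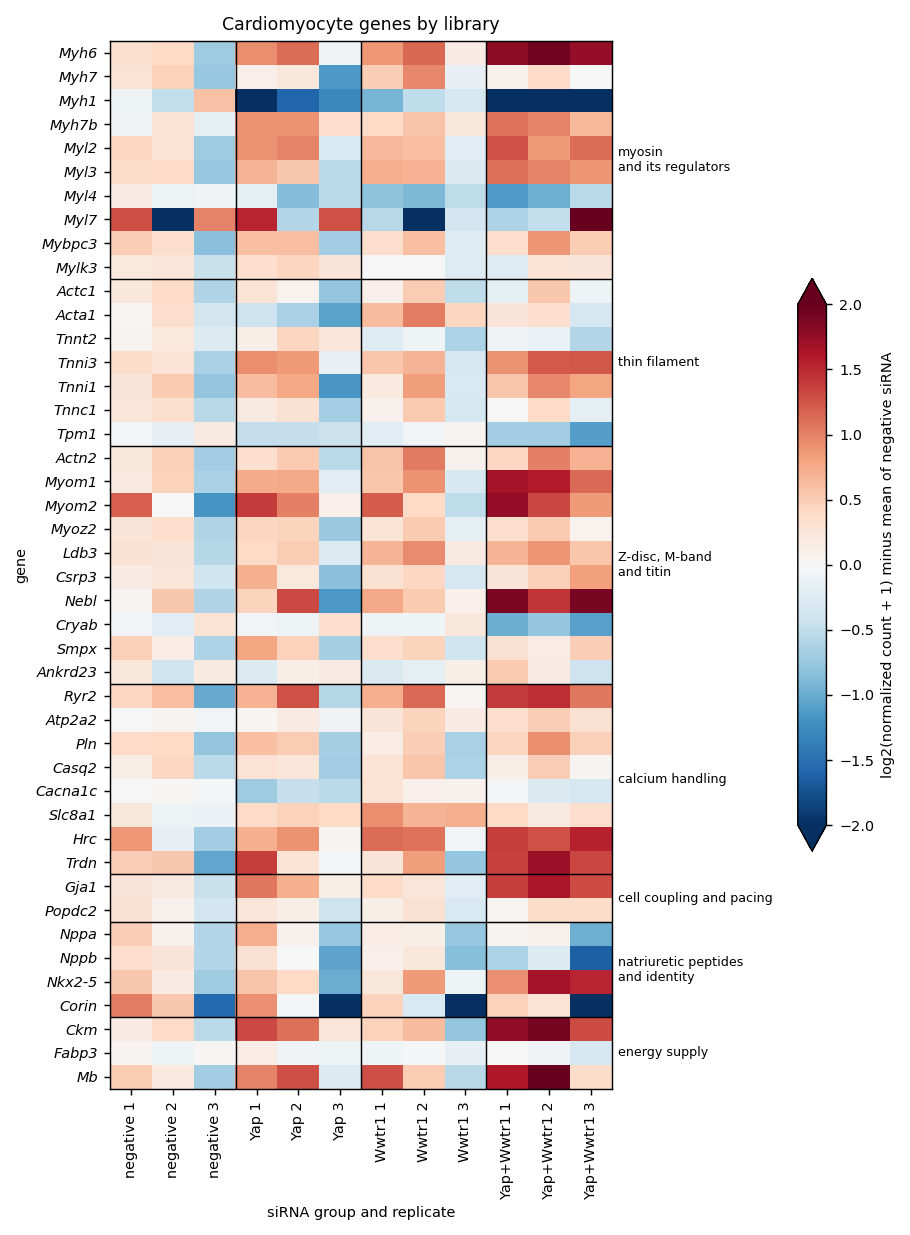
Colour gives log2(normalized count + 1) of each of the 44 tested genes (rows, grouped by role) in each of the 12 libraries (columns, grouped by siRNA) minus the mean of the 3 negative siRNA libraries, with the scale ending at 2 in either direction. Most rows are lighter or blue in replicate 3 of the first 3 groups, Myh6 is red and Myh1 blue throughout the double knockdown, and Tpm1, Cryab and Myl4 are blue there.

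Depletion of both Yap and Wwtr1 changed 17 of the 44 genes, 13 of them higher and 4 lower. Over all 11871 genes tested, 32.8% were called in this comparison, 17.1% higher and 15.6% lower, against 29.5% higher and 9.09% lower among the cardiomyocyte genes. The median log2 fold change was 0.44 over the 44 genes and 0.00 over all genes. Without negative siRNA replicate 3 the count was 10, against 23.1% of all genes, and the median 0.24. Without double knockdown replicate 3 it was 13 (9 higher, 4 lower), against 34.2% of all genes, and the median 0.40. With all number-3 libraries left out, 19 genes were called (14 higher, 5 lower), against 27.2% of all genes (13.6% higher and 13.6% lower). Libraries of the double knockdown lay entirely above those of negative siRNA for 18 of the 44 genes and entirely below them for 5, where 23.1% and 21.5% of all genes did so.

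Among the 8 defining markers the log2 fold change ran from -0.27 (Tnnt2) to 1.83 (Myh6). Of the 8, 3 were called, against 32.8% of all genes.

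**Figure D3:**
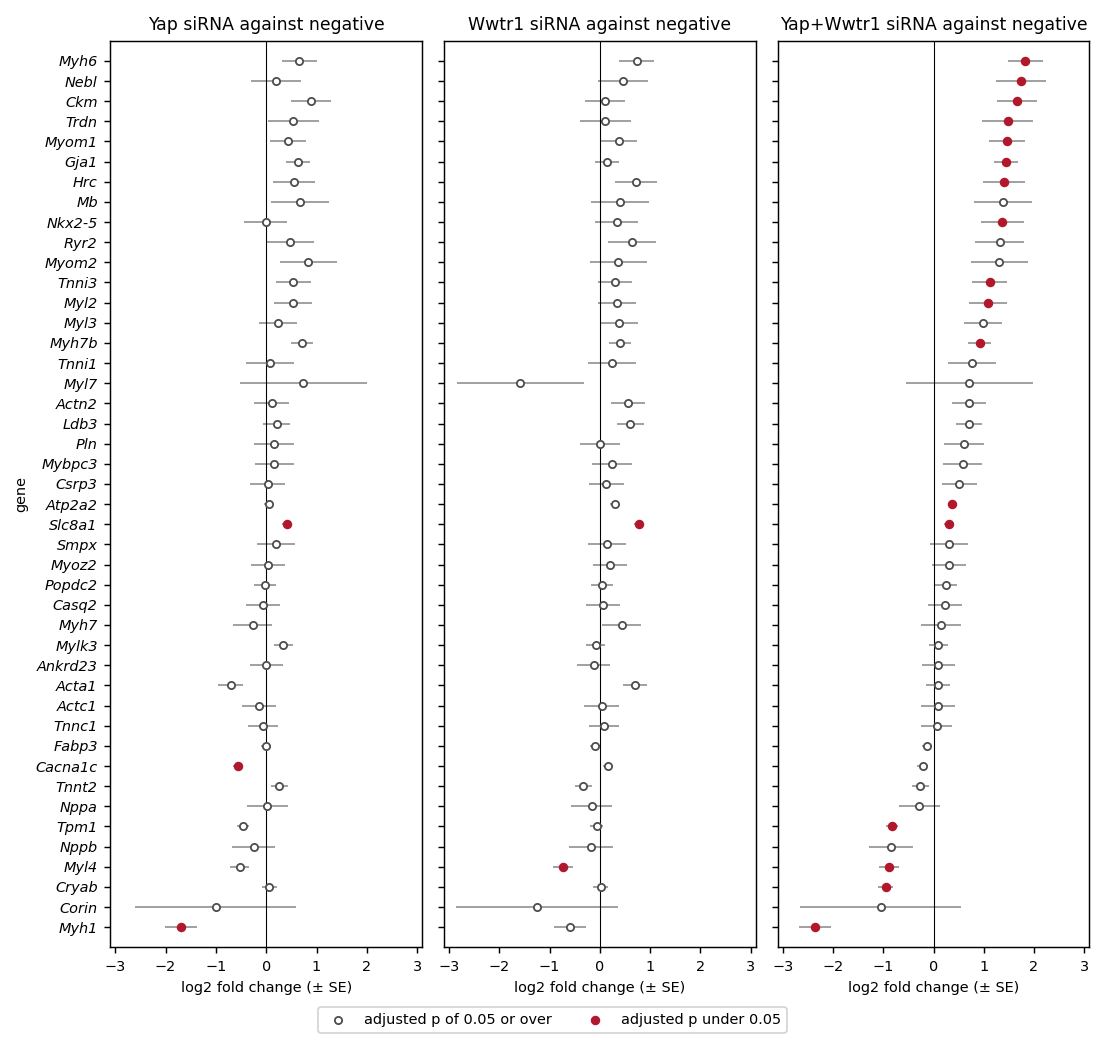
Log2 fold change against negative siRNA (horizontal axis, bars are ± 1 SE from limma) for the 44 tested genes (vertical axis, ordered by the double knockdown) under Yap siRNA, Wwtr1 siRNA and both. Filled points have an adjusted p under 0.05: 3 genes under Yap siRNA, 2 under Wwtr1 siRNA and 17 under both, where values run from -2.36 (Myh1) to 1.83 (Myh6).

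Among 10 myosin heavy and light chains and their regulators, 3 were higher and 2 lower in the double knockdown. Over all genes 17.1% were called higher and 15.6% lower. Myh6, the fast alpha heavy chain that predominates in the adult rodent heart, was 9496, 9986 and 4616 normalized counts under negative siRNA and 26279, 29002 and 25636 in the double knockdown. All 3 double knockdown libraries were above every other library of the study, and the log2 fold change was 1.83 (SE 0.35, adjusted limma p 0.00206). It kept its call when any single library was left out, with values from 1.47 to 2.02.

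Myh7, the slow beta heavy chain of the fetal and the stressed heart, was 8365, 9451 and 4069 normalized counts under negative siRNA and 7272, 8897 and 6852 in the double knockdown. Its groups overlapped (log2 fold change 0.15, SE 0.39, adjusted limma p 0.796). The pair was therefore compared within each library. Myh7 divided by Myh6 was 0.881, 0.946 and 0.882 under negative siRNA, 0.508, 0.487 and 0.428 under Yap siRNA, 0.699, 0.789 and 0.720 under Wwtr1 siRNA, and 0.277, 0.307 and 0.267 under both. No pair of these groups overlapped, and the spread within a group was small although replicate 3 had the lowest count of both genes in each group. On the log2 scale the difference of this ratio from negative siRNA was -0.93 under Yap siRNA (SE 0.08), -0.30 under Wwtr1 siRNA (SE 0.06) and -1.67 in the double knockdown (SE 0.07). Each exact permutation test over the libraries gave p = 0.1, the smallest that 3 against 3 allows, or 0.225 when adjusted over the 18 ratio tests. The sequences of both heavy chains are close, so their shared reads could be divided differently, and raw ratios between genes of unequal length have no meaning as shares of protein.

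**Figure D4:**
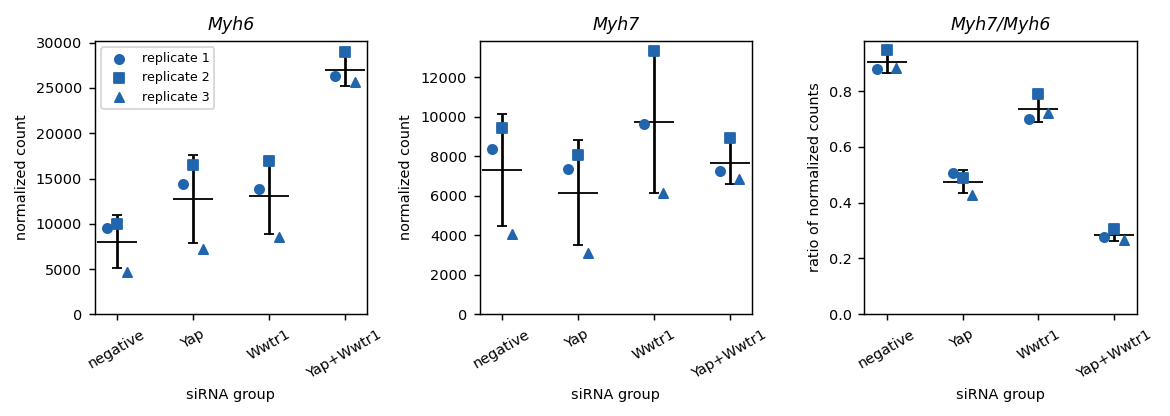
Normalized counts of Myh6 and Myh7 and their ratio (vertical axes, starting at 0) in the 4 siRNA groups (horizontal axes), with a symbol for each replicate, the mean as a horizontal line and the SD as a bar. Myh6 was highest in the double knockdown (25636 to 29002), Myh7 overlapped between groups, and the ratio fell from between 0.881 and 0.946 under negative siRNA to between 0.267 and 0.307 in the double knockdown.

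Myh7b, a further heavy chain gene of slow and cardiac muscle, was 72.9, 92.0 and 66.1 normalized counts under negative siRNA and 163, 153 and 122 in the double knockdown, with no overlap. Its log2 fold change was 0.92 (SE 0.22, adjusted limma p 0.00828), and the call was kept without any single library. Myl2, the ventricular regulatory light chain, was 1374, 1259 and 623 under negative siRNA and 2483, 1857 and 2238 in the double knockdown (log2 fold change 1.09, SE 0.37, adjusted limma p 0.0425). Its call was kept in 6 of the 12 fits that left out a single library. It was lost without negative siRNA replicate 2 or 3, Wwtr1 siRNA replicate 2 or any double knockdown library, with adjusted p up to 0.176, and also without the mean-variance trend (adjusted p 0.0730).

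Both falls in this group were of chains that the adult ventricle does not favour, but not every such chain fell. The atrial Myl7 and the fetal Myh7 had log2 fold changes of 0.71 and 0.15 and were not called. Myh1, a fast heavy chain of skeletal muscle, was 302, 227 and 480 normalized counts under negative siRNA, 68.6, 106 and 131 under Yap siRNA and 74.6, 66.1 and 47.4 in the double knockdown. Neither of these groups overlapped under negative siRNA, and the log2 fold change in the double knockdown was -2.36 (SE 0.31, adjusted limma p 0.000201). Myl4, the essential light chain of atrial and fetal muscle, was 628, 521 and 535 under negative siRNA and 254, 285 and 383 in the double knockdown (log2 fold change -0.88, SE 0.20, adjusted limma p 0.00496). Both genes kept these calls without any single library. Reads of Myh1 could be divided differently with other skeletal heavy chains, among which Myh2 is listed below.

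The other chains of this group were not called over all libraries. Myl3, the ventricular essential light chain, was 2903, 2935 and 1322 normalized counts under negative siRNA and 4804, 4436 and 4112 in the double knockdown, and these libraries did not overlap (log2 fold change 0.99, SE 0.37, adjusted limma p 0.0625). With all number-3 libraries left out Myl3 was called (0.66, adjusted limma p 0.000647). Myl7, the atrial regulatory light chain, was 141, 11 and 114 under negative siRNA and 36.8, 40.1 and 545 in the double knockdown, so that replicate 3 alone set its mean there. Mybpc3, the myosin-binding protein C of heart muscle, was 1076, 978 and 430 under negative siRNA and 979, 1413 and 1086 in the double knockdown (log2 fold change 0.58, SE 0.40, adjusted limma p 0.289). Mylk3, a kinase of the regulatory light chain, had a log2 fold change of 0.09. Myh3, the embryonic skeletal heavy chain, was listed at 0 in 7 libraries and reached 17.7 at most.

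In the thin filament, 1 of 7 genes was called higher and 1 lower in the double knockdown, against 17.1% and 15.6% of all genes. Tnni3, the cardiac form of the inhibitory troponin subunit, was 919, 867 and 457 normalized counts under negative siRNA and 1332, 1665 and 1684 in the double knockdown, with no overlap (log2 fold change 1.12, SE 0.34, adjusted limma p 0.0268). Its call was lost without negative siRNA replicate 3, or without double knockdown replicate 2 or 3 (adjusted p up to 0.116). Tpm1, a tropomyosin that fibroblasts and smooth muscle also use, was 60894, 54988 and 69666 under negative siRNA and 37866, 38183 and 28537 in the double knockdown (log2 fold change -0.83, SE 0.12, adjusted limma p 0.000382). Every double knockdown library of Tpm1 was below every negative siRNA library.

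The cardiac troponin T gene Tnnt2, a defining marker, stood against Tnni3. It was 20176, 22520 and 16114 normalized counts under negative siRNA, 21168, 26056 and 22910 under Yap siRNA, 16239, 18254 and 12465 under Wwtr1 siRNA and 18450, 17691 and 12918 under both (log2 fold change -0.27, SE 0.17, adjusted limma p 0.261). All Yap siRNA libraries were above all libraries given Wwtr1 siRNA, alone or with Yap siRNA, and each group overlapped with negative siRNA. Actc1, the cardiac actin, Acta1, the skeletal actin that the fetal heart also uses, and Tnnc1, the calcium-binding troponin, had log2 fold changes of 0.08, 0.08 and 0.06. Tnni1, the slow skeletal and fetal inhibitory subunit, had 0.76 (SE 0.48, adjusted limma p 0.246).

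At the Z-disc and M-band, 2 of 10 genes were called higher and 1 lower, against 17.1% and 15.6% of all genes. Nebl, which encodes the Z-disc protein nebulette, was 117, 165 and 74.4 normalized counts under negative siRNA and 417, 306 and 423 in the double knockdown (log2 fold change 1.73, SE 0.50, adjusted limma p 0.0193). The groups did not overlap, and the call was lost without negative siRNA replicate 3 or double knockdown replicate 1 (adjusted p up to 0.0823). Myom1, a cross-linker of the M-band, was 327, 393 and 181 under negative siRNA and 911, 855 and 628 in the double knockdown (log2 fold change 1.46, SE 0.36, adjusted limma p 0.00935). Myom1 was called without any single library.

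Cryab, a small heat shock protein that protects desmin and the Z-disc and is present in many cell types, was 18146, 16271 and 22839 normalized counts under negative siRNA. It was 18240, 17610 and 23828 under Yap siRNA, 17831, 17824 and 22141 under Wwtr1 siRNA and 9477, 11039 and 8877 under both. The first 3 groups overlapped throughout and the double knockdown lay below all of them, with a log2 fold change of -0.95 against negative siRNA (SE 0.15, adjusted limma p 0.000597). The interaction, which is the effect of both siRNAs together less the summed effects of each alone, was -1.03 (SE 0.21, adjusted limma p 0.0449). That call held in 1 of the 12 fits that left out a single library (adjusted p up to 0.108) and was also lost without the mean-variance trend.

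Actn2, the actin cross-linker of the Z-disc and a defining marker, was 2526, 2999 and 1342 normalized counts under negative siRNA and 2888, 4370 and 3509 in the double knockdown (log2 fold change 0.71, SE 0.34, adjusted limma p 0.135). With the replicate number as a block over all 12 libraries, Actn2 was called (adjusted limma p 0.0155). The other 6 genes of this group were not called either in the fit without this block. Among these, Myom2 of the M-band had a log2 fold change of 1.31, the Z-disc protein gene Ldb3 0.71 and the LIM protein gene Csrp3 0.51, and Smpx, Myoz2 and Ankrd23 lay between 0.09 and 0.32. With all number-3 libraries left out Ldb3 was called (0.50, adjusted limma p 0.0149).

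Of 8 calcium handling genes, 4 were called higher in the double knockdown and none lower, against 17.1% and 15.6% of all genes. Trdn, which encodes triadin, a membrane anchor of the ryanodine receptor complex, was 82.1, 85.0 and 27.9 normalized counts under negative siRNA and 152, 192 and 148 in the double knockdown (log2 fold change 1.47, SE 0.51, adjusted limma p 0.0438). Hrc, a calcium-binding protein of the sarcoplasmic reticulum lumen, was 99.5, 48.0 and 33.1 under negative siRNA and 142, 133 and 160 in the double knockdown (log2 fold change 1.40, SE 0.42, adjusted limma p 0.0230). Neither gene overlapped between these groups. The call of Trdn was kept in 6 of 12 fits, and it was lost without negative siRNA replicate 3, Yap siRNA replicate 2, Wwtr1 siRNA replicate 1 or any double knockdown library (adjusted p up to 0.178), or without the mean-variance trend (0.0633). That of Hrc was lost without negative siRNA replicate 2 or 3 or double knockdown replicate 1 (adjusted p up to 0.0990). Both were also lost with all number-3 libraries left out.

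Atp2a2, which encodes the pump SERCA2 that returns calcium to the sarcoplasmic reticulum, was 15757, 16409 and 15149 normalized counts under negative siRNA, 18939, 21548 and 17705 under Wwtr1 siRNA and 19895, 22097 and 19482 under both. The rise was small and even across libraries, with a log2 fold change of 0.38 (SE 0.09, adjusted limma p 0.00645) that was called without any single library. Fibroblasts also transcribe this pump.

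Slc8a1, the sodium-calcium exchanger, was 5731, 4586 and 4516 normalized counts under negative siRNA, 6430, 6782 and 6449 under Yap siRNA, 9397, 7859 and 8062 under Wwtr1 siRNA and 6510, 5592 and 6274 under both. It was highest under Wwtr1 siRNA alone, whose libraries were above those of every other group. The log2 fold change was 0.41 under Yap siRNA (SE 0.10, adjusted limma p 0.0410), 0.78 under Wwtr1 siRNA (SE 0.10, adjusted limma p 0.00107) and 0.31 in the double knockdown (SE 0.10, adjusted limma p 0.0323). The interaction was -0.88 (SE 0.14, adjusted limma p 0.0192). The Wwtr1 siRNA call was kept without any single library. The interaction was called in 11 of those 12 fits and was lost without Yap siRNA replicate 3 (adjusted p 0.0578). The double knockdown call was kept in 8 fits and lost without negative siRNA replicate 2 or 3 or double knockdown replicate 1 or 3 (adjusted p up to 0.127), and the Yap siRNA call was kept in 5 (adjusted p up to 0.159). Calls of Slc8a1 in the double knockdown and under Yap siRNA were also lost with all number-3 libraries left out (adjusted p 0.218 and 0.177), under upper-quartile scaling (0.0546 and 0.0511), without the mean-variance trend (0.0560 and 0.0804) and in fits on the compared groups alone (0.0757 and 0.0556). The interaction was lost without the trend (0.0501) and with the number-3 libraries left out (0.0837).

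Ryr2, the calcium release channel and a defining marker, was 438, 499 and 162 normalized counts under negative siRNA and 871, 919 and 685 in the double knockdown. The libraries did not overlap, and the test just missed its threshold (log2 fold change 1.31, SE 0.48, adjusted limma p 0.0555). It passed in 3 of the 12 fits that left out a single library (without negative siRNA replicate 2 or Yap siRNA replicate 2 or 3, adjusted p from 0.0270) and with all number-3 libraries left out (0.94, adjusted p 0.00926). Ryr2 also passed in the limma fit on the compared groups alone (adjusted p 0.0465). With the replicate number as a block over all 12 libraries its adjusted limma p was 0.00177, and that of Pln was 0.0399. Pln, which encodes phospholamban, the inhibitor of SERCA2, was 1944, 1949 and 862 under negative siRNA and 1995, 2833 and 2067 in the double knockdown (log2 fold change 0.61, SE 0.40, adjusted limma p 0.262). Casq2, the luminal calcium store protein, had 0.22 and Cacna1c, the pore of the L-type channel, -0.22.

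Gja1, which encodes the gap junction protein connexin 43 and is also transcribed in fibroblasts, was 926, 882 and 573 normalized counts under negative siRNA and 2029, 2412 and 1928 in the double knockdown, where the log2 fold change was 1.44 (SE 0.24, adjusted limma p 0.000885), with no overlap and a call without any single library. Popdc2, a membrane protein linked to pacing, had 0.26.

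Nkx2-5, a homeobox factor of the cardiac lineage, was 251, 193 and 105 normalized counts under negative siRNA, 257, 227 and 85.9 under Yap siRNA, 201, 313 and 163 under Wwtr1 siRNA and 326, 551 and 495 under both. The 3 libraries that had received both siRNAs were above all others, with a log2 fold change of 1.37 (SE 0.43, adjusted limma p 0.0291). The call was lost without negative siRNA replicate 2 or 3 or double knockdown replicate 2 or 3 (adjusted p up to 0.124), and without the mean-variance trend (0.0502). The natriuretic peptide genes, hormones of the atrium and of the fetal or loaded ventricle, were not called: the log2 fold change was -0.28 for Nppa (SE 0.41) and -0.85 for Nppb (SE 0.43, adjusted limma p 0.155). Nppb was 1256, 1192 and 667 under negative siRNA and 647, 827 and 320 in the double knockdown. With all number-3 libraries left out it was called lower (-0.74, adjusted limma p 0.00680). Corin, the protease that activates these peptides, was listed at 0 in replicate 3 of Yap siRNA, of Wwtr1 siRNA and of the double knockdown, and was 4.13 in negative siRNA replicate 3.

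Among the genes of energy supply, Ckm, the muscle creatine kinase, was 160, 186 and 98.2 normalized counts under negative siRNA and 489, 539 and 354 in the double knockdown, where the log2 fold change was 1.66 (SE 0.39, adjusted limma p 0.00706), with no overlap and a call without any single library. Mb, which encodes the oxygen store myoglobin, was 116, 93.0 and 49.6 under negative siRNA and 249, 367 and 105 in the double knockdown, where replicate 3 was below negative siRNA replicate 1 (log2 fold change 1.38, SE 0.58, adjusted limma p 0.0876). With all number-3 libraries left out Mb was called (1.53, adjusted limma p 0.00653). Fabp3, a fatty acid carrier, had -0.13. Ckmt2, the mitochondrial creatine kinase, was listed at 0 in 5 libraries and reached 17.6 at most.

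Promoters of the 3 called genes with the largest changes that held a searched motif are shown because the genes moved in opposite directions in the double knockdown. They are RefSeq sequences of the assembly GRCr8, covering the 250 bases before the annotated start on the strand of the gene. The letters searched, on both strands, were CATTCC (the core of the M-CAT element, to which TEAD factors bind), the CArG box of serum response factor, the MEF2 site, and TATAAA. Capitals mark the matches.
Myh1, chr10:52384662-52384911, plus strand: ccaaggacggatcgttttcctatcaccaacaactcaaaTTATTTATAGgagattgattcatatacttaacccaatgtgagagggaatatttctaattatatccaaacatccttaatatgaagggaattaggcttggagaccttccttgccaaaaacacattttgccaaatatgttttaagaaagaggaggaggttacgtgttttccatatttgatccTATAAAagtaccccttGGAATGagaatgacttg
Myh6, chr15:32411698-32411947, minus strand: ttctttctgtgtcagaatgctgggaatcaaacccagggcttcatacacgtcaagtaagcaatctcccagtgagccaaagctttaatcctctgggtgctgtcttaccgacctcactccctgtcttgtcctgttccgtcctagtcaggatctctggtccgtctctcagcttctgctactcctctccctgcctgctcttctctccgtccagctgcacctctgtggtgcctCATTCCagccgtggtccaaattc
Nebl, chr17:85135297-85135546, minus strand: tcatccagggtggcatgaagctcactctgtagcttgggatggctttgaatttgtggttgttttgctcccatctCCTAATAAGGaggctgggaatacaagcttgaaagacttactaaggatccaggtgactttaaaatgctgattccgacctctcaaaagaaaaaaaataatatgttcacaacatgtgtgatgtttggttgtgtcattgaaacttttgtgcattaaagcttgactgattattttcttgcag

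In the Myh1 promoter, the MEF2 site lay 212 to 203 bases before the start and overlaps a TATAAA on the other strand, a second TATAAA lay 33 to 28 bases before it, and the M-CAT core lay 17 to 12 bases before it on the other strand. In the Myh6 promoter the M-CAT core lay 23 to 18 bases before the start, and in the Nebl promoter a CArG box lay 177 to 168 bases before it. Of the 49 listed genes, 43 matched the promoter table, with 46 promoters in all. The M-CAT core was in 23.9% of these 46 (11 promoters) and in 12.1% of all 33469 promoters of this length. The MEF2 site was in 17.4% against 2.96%, the CArG box in 8.7% against 1.5% and TATAAA in 15.2% against 12.9%. The 8 promoters with a MEF2 site hold Xirp1 more than once and also Ttn, genes whose levels were not analysed here. Of the 12 promoters of genes called higher in the double knockdown, 1 held the M-CAT core, 1 the CArG box and 0 the MEF2 site or TATAAA, and of the 3 of genes called lower these numbers were 2, 0, 1 and 2 in the order M-CAT, CArG, MEF2 and TATAAA. A match is a description of the letters in this window only.

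Besides Myh7 and Myh6, 5 pairs of genes were set against each other within each library. Each pair joins genes of unlike class or form, so differences within a class were not tested. Myl4 (atrial and fetal) divided by Myl3 (ventricular) was 0.216, 0.177 and 0.405 under negative siRNA and 0.0528, 0.0643 and 0.0933 in the double knockdown, a log2 difference of -1.87 (SE 0.43) without overlap. Nppb divided by Nppa was 0.0797, 0.1 and 0.0898 under negative siRNA and 0.0559, 0.0697 and 0.0564 in the double knockdown (-0.57, SE 0.14), also without overlap. Tnni1 divided by Tnni3 was 0.603, 0.773 and 0.588 under negative siRNA and 0.509, 0.543 and 0.474 in the double knockdown (-0.35, SE 0.14). These 3 differences had an exact permutation p of 0.1, the smallest possible, and 0.225 after adjustment.

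Acta1 divided by Actc1 moved in opposite directions in the single knockdowns. It was 0.0371, 0.042 and 0.05 under negative siRNA, 0.0265, 0.0259 and 0.0352 under Yap siRNA, and 0.0618, 0.0612 and 0.0820 under Wwtr1 siRNA. The log2 differences of -0.56 (SE 0.19) and 0.66 (SE 0.19) each had an exact permutation p of 0.1, and in the double knockdown the difference was 0.00 (SE 0.26). Myl7 divided by Myl2 ranged from 0.00873 to 0.182 under negative siRNA, and every group overlapped with it. By number it was 0.102, 0.00873 and 0.182 under negative siRNA and 0.0239, 0.00197 and 0.0501 under Wwtr1 siRNA, lower in 3 of 3 pairs, and no paired test of this ratio was run.

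By class, the 2 ventricular light chains had log2 fold changes of 1.09 and 0.99 in the double knockdown, of which 1 was called. Of the 3 atrial genes (Myl4, Myl7 and Nppa), 1 was called, lower. None of the 4 fetal or hypertrophic genes (Myh7, Tnni1, Acta1 and Nppb) was called by limma over all libraries without pairing, where 0 had an unadjusted p under 0.05. Nppb was called lower with all number-3 libraries left out. Of the 7 genes also transcribed in other cardiac cells, 3 were called higher (Gja1, Atp2a2 and Slc8a1) and 2 lower (Tpm1 and Cryab). Over all genes 17.1% were called higher and 15.6% lower.

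Depletion of Yap alone changed 3 of the 44 genes when libraries were not paired: Slc8a1 was higher, and Cacna1c and Myh1 were lower. In all, 4.8% of genes were called in this comparison, 3.02% higher and 1.78% lower. The median log2 fold change of the 44 genes was 0.13, and it was -0.11 without negative siRNA replicate 3. Same-numbered libraries of the negative, Yap and Wwtr1 siRNA groups varied together, and with the replicate number as a block (and without the double knockdown libraries) 15 of the 44 genes were called, 10 higher and 5 lower, against 16.3% of all genes (9% higher, 7.26% lower). With the block over all 12 libraries 7 were called, against 7.36% of all genes, and with all number-3 libraries left out and no block 8 were called (5 higher, 3 lower), against 4.27%. Cacna1c, whose 3 libraries under Yap siRNA (798, 952 and 903 normalized counts) were all below those under negative siRNA (1305, 1330 and 1291), had a log2 fold change of -0.57 (SE 0.10, adjusted limma p 0.0118, or 0.00185 with the block). It lost its unpaired call without Yap siRNA replicate 1 (adjusted p 0.0602). For Myh1 it was -1.69 (SE 0.31, adjusted limma p 0.0136, or 0.000342 with the block), and the unpaired call was lost without negative siRNA replicate 3 or Yap siRNA replicate 1 (adjusted p up to 0.0654).

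Myh6 was 14439, 16539 and 7242 normalized counts under Yap siRNA, above the negative siRNA library of the same number in 3 of 3 pairs, and its log2 fold change of 0.66 had an adjusted limma p of 0.325 without the block and 0.000115 with it, or 0.0549 with the block over all 12 libraries. Ckm (0.89), Myom2 (0.84), Myh7b (0.71), Gja1 (0.63), Tnni3 (0.54), Myl2 (0.53), Myom1 (0.43) and Myl3 (0.23) were also higher with the block. Acta1 (-0.71), Myl4 (-0.53) and Tpm1 (-0.46) were lower with it, beside Myh1 and Cacna1c. Tpm1 was 44475, 44145 and 45805 under Yap siRNA, below all negative siRNA libraries (adjusted limma p 0.0546 without the block and 0.00121 with it). Of these gained calls, only those of Ckm, Myh7b, Gja1 and Acta1 were also made with the block over all 12 libraries.

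Depletion of Wwtr1 alone changed 2 of the 44 genes without pairing, where 8.96% of all genes were called, 5% higher and 3.96% lower. Slc8a1 was higher and Myl4 was lower, at 320, 301 and 392 normalized counts (log2 fold change -0.74, SE 0.20, adjusted limma p 0.0374), all below negative siRNA. The median of the 44 genes was 0.15, and it was -0.08 without negative siRNA replicate 3. The call of Myl4 was kept in 6 of the 12 fits without a single library; it was lost without any of the negative siRNA libraries, Yap siRNA replicate 3 or Wwtr1 siRNA replicate 1 or 2 (adjusted p up to 0.136), and also without the mean-variance trend (0.0576). With all number-3 libraries left out it was lost too (0.0502), and 3 genes were called, all higher, against 6.74% of all genes. With the block, 15 genes were called, 12 higher and 3 lower, against 21.7% of all genes (11.1% higher, 10.6% lower). Myh6 was 13807, 16907 and 8531 under Wwtr1 siRNA (log2 fold change 0.73, adjusted limma p 0.231 without the block and 4.45e-05 with it). Acta1 (0.69), Ryr2 (0.64), Ldb3 (0.60), Actn2 (0.57), Myh7 (0.43), Myom1 (0.38), Myl3 (0.38), Myl2 (0.34), Tnni3 (0.30) and Atp2a2 (0.29) were also higher with the block, and Myl7 (-1.59) and Tnnt2 (-0.33) were lower. With the block over all 12 libraries 6 genes were called, against 11.1% of all genes, and of the gained calls only those of Myh6, Acta1, Ldb3 and Atp2a2 were made there too.

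Acta1, Cacna1c and Slc8a1 differed between the single knockdowns, and all 3 were lower under Yap siRNA, where 8.79% of all genes were called, 4.57% higher and 4.22% lower under Yap siRNA. Acta1 was 367, 311 and 232 normalized counts under Yap siRNA and 755, 993 and 656 under Wwtr1 siRNA, and the negative siRNA libraries (494, 624 and 376) lay between the groups. The log2 difference was -1.40 (SE 0.24, adjusted limma p 0.00567, or 6.9e-05 with the block). With the block 14 genes differed, against 23% of all genes (11.8% higher, 11.2% lower), 5 of them higher under Yap siRNA (Myl7, Ckm, Tnnt2, Gja1 and Mylk3) and 9 lower. With the block over all 12 libraries 8 differed, against 10.6% of all genes. Among the 9, Myh7 was lower by a log2 difference of -0.70 (SE 0.09, adjusted limma p 0.000436).

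The double knockdown was also set against each single knockdown. Against Yap siRNA, 5 of the 44 genes were higher and 1 lower, where 13.8% of all genes were called (6.83% higher, 6.96% lower). Myh6 (log2 difference 1.17), Gja1 (0.81), Acta1 (0.79), Cacna1c (0.35) and Atp2a2 (0.33) were higher and Cryab was lower (-1.01). Without Yap siRNA replicate 3 the count was 1, against 6.32% of all genes. Against Wwtr1 siRNA, 3 genes were higher and 5 lower, where 19.9% of all genes were called (9.75% higher, 10.1% lower). Ckm (1.55), Gja1 (1.30) and Myh6 (1.10) were higher, and Myh1 (-1.76), Cryab (-0.97), Tpm1 (-0.77), Slc8a1 (-0.46) and Cacna1c (-0.38) were lower. With all libraries, Myh6, Gja1 and Cryab were thus called in the double knockdown against each of the other 3 groups. The calls of Myh6 and Gja1 against Yap siRNA were lost without Yap siRNA replicate 3, where 0 of the 44 genes were called higher. In the interaction 2 of the 44 genes were called, Cryab and Slc8a1, both negative, where 1.03% of all genes were called (0.421% positive, 0.607% negative). All comparisons under negative siRNA share the same control libraries.

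Further genes of heart muscle, outside the 49, were listed by function. Of 27 tested, 9 were higher and 2 lower in the double knockdown, with a median log2 fold change of 0.41. Over all genes 17.1% were called higher and 15.6% lower. Mypn, a Z-disc protein gene, was 29.8, 11 and listed at 0 under negative siRNA and was 86.5, 96.2 and 57.9 in the double knockdown (log2 fold change 3.47, SE 1.01, adjusted limma p 0.0205). Smyd1, a muscle methyltransferase that takes part in myosin assembly, was 44.1, 78.0 and 21.7 under negative siRNA and 193, 258 and 202 in the double knockdown (2.33, SE 0.53, adjusted limma p 0.00575). Ankrd1, a titin-associated protein gene that is also a known Yap target, had a log2 fold change of -1.64 (SE 0.14, adjusted limma p 1.66e-05), and Fhl2, a LIM protein gene, had -0.75 (SE 0.14, adjusted limma p 0.00155). Of 18 skeletal muscle genes, 6 were listed and 4 tested. Myh2, a second fast skeletal heavy chain, was called lower, at 67.7, 48.0 and 126 under negative siRNA and 20.9, 30.9 and 12.3 in the double knockdown (-1.84, SE 0.42, adjusted limma p 0.00583).

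Markers of other cell types moved in the same libraries, where 17.1% of all genes were called higher and 15.6% lower in the double knockdown. Of 10 smooth muscle and myofibroblast markers, 3 were lower (among them Acta2, -1.18, and Tagln, -1.16) and 1, the intermediate filament gene Des that cardiomyocytes also use, was higher (1.37). Their sum ran from 488198 to 654603 normalized counts under negative siRNA and from 187187 to 355683 in the double knockdown. Of 10 fibroblast markers, 4 were higher (among them Dcn, 2.01, and Pdgfra, 1.76) and 2 lower (Col1a2, -0.43, and Tcf21, -0.42), and of 8 endothelial markers 4 were higher (among them Kdr, 1.79, and Cdh5, 1.30). Of 10 macrophage markers 1, Cx3cr1, was called lower, and their sum was 7073, 13985 and 48222 in the double knockdown libraries against 22272 to 32326 under negative siRNA. Defining cardiomyocyte markers summed to 36828, 39989 and 24088 under negative siRNA, 43906, 51289 and 34002 under Yap siRNA, 37708, 45026 and 25946 under Wwtr1 siRNA and 53120, 58444 and 48080 under both. Most of this sum came from Myh6 and Tnnt2, and its rise was mostly that of Myh6. From negative siRNA to both, the mean of Myh6 went from 8033 to 26972 and that of Tnnt2 from 19603 to 16353. The part of the changes in other cell types in the values of the 44 genes was not tested.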

How the data were processed

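RNA was sequenced from 12 libraries, 3 for each of negative, Yap, Wwtr1 and Yap + Wwtr1 siRNA, grouped and numbered by their titles. The authors trimmed reads with Trim Galore 0.6.5, aligned them to rat genome rn6 with HISAT2, assembled transcripts with StringTie and called changed genes with DESeq2. The deposited signal values were read as normalized gene counts, scaled by 1 factor per library, since all 147252 were whole multiples of 1 step per library (within 0.01 of a step). Whether counting used the strand is not given in the sources used here. The authors' own fold changes and p-values were not used.

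Limma 3.58.1 in R 4.3.3 was run on log2(normalized count + 1) with a mean-variance trend, over all 12 libraries in one fit without covariates, for the 11871 genes with a mean of at least 10. P-values are two-sided and were adjusted over all genes tested (Benjamini-Hochberg). A call is an adjusted p under 0.05. The fold changes are on this log2 scale and understate changes of low genes. Isoform ratios, as log2(count + 1) differences, were compared by exact permutation tests over the libraries. The steps were tested on simulated data. The members and gene lists were chosen with earlier results of these data known. All 49 members are accounted for, those called or defining in full. From each other list the 2 highest rises and 2 largest falls called in the double knockdown are named. Lists of genes carry no test of their own.

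Deviations from the group mean correlated between same-numbered libraries of the negative, Yap and Wwtr1 siRNA groups (9 pairs, 0.104 to 0.276), so the numbers were taken to pair them, the study having made its replicates from separate litters. With the double knockdown the correlations ran from -0.127 to 0.180.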

Additional observations from a re-analysis of the deposited data

Results flagged for a closer look

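A pair of genes had an effect of Wwtr1 siRNA that differed with and without Yap siRNA, by the interaction term of limma. For Cryab the interaction was -1.03 on the log2 scale (SE 0.21, adjusted limma p 0.0449): the level was lower in 3 of 3 double knockdown libraries than in any other library, and neither single knockdown was called. For Slc8a1 it was -0.88 (SE 0.14, adjusted limma p 0.0192): the level was higher with each single siRNA than with negative siRNA in 3 of 3 libraries, and the mean of the double knockdown (6125 normalized counts) was below those under Yap siRNA (6554) and Wwtr1 siRNA (8439). Of the 11871 genes tested, 1.03% were called in the interaction. The Cryab call was kept in 1 of the 12 fits that left out a single library, and that of Slc8a1 in 11. Both were lost without the mean-variance trend.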

How the results depend on the processing

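Counts of members called moved with the processing. Leaving out 1 library gave 0 to 4 called under Yap siRNA, 1 to 3 under Wwtr1 siRNA, 10 to 20 in the double knockdown (10 without negative siRNA replicate 3), 1 to 6 against Yap siRNA (1 without Yap siRNA replicate 3), 5 to 10 against Wwtr1 siRNA, 2 to 6 between the single knockdowns and 0 to 2 in the interaction. In the same fits the shares of all genes called were, in this order, 0.935% to 6.47%, 4.62% to 12%, 23.1% to 34.2%, 6.32% to 15.8%, 10.9% to 19.7%, 3.66% to 11.9% and 0.261% to 1.35%. Leaving out all number-3 libraries, chosen after seeing the data, gave 8 under Yap siRNA (4.27% of all genes) and 1 in the interaction (Cryab, 0.844%). Without the mean-variance trend, 13 genes were called in the double knockdown (lost: Myl2, Nkx2-5, Slc8a1, Trdn; 30.3% of all genes), 1 under Wwtr1 siRNA (7.01%), 1 in the double knockdown against Yap siRNA (11.2%) and 0 in the interaction (0.505%), where 2 had an unadjusted p under 0.05 with the trend. Fits on the compared groups alone gave 1 in the double knockdown against Yap siRNA (6.45%) and 6 between Yap and Wwtr1 siRNA (8.34%), and a mean of at least 100 gave 5 there (11.1%). The causes were not tested.

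With the replicate block over the paired groups, 15 genes were called under Yap siRNA, 15 under Wwtr1 siRNA and 14 between them. With the block over all 12 libraries the counts were 7 under Yap siRNA (7.36% of all genes), 6 under Wwtr1 siRNA (11.1%), 8 between them (10.6%), 25 in the double knockdown (20 higher and 5 lower, 35.4% of all genes), 15 against Yap siRNA (17.9%) and 17 against Wwtr1 siRNA (23.3%). Actn2, Pln and Ryr2 were among the genes it added in the double knockdown. The labels give double knockdown libraries only a number in common with the others: in 10 of 18 checks with another group the best correlation was with the own number.

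Medians over the members moved by less than the spread between replicates in all 135 alternatives run. Replicate 3 widened that spread, so this check could hardly fail and does not show that the medians were stable. Leaving out 1 library gave medians from -0.11 to 0.45 under Yap siRNA and from -0.08 to 0.41 under Wwtr1 siRNA. They ran from 0.24 to 0.57 in the double knockdown and from -0.32 to 0.31 between the single knockdowns. Medians of both single knockdowns against negative siRNA changed sign without negative siRNA replicate 3. Ratios kept their direction in 128 alternatives and reversed in 16, all of them ratios near 0 or wide. With a pseudocount of 10, Acta1/Actc1 in the double knockdown was -0.000328 on the log2 scale, and leaving out 1 library gave -0.22 to 0.12. That range was -1.08 to 1.11 for Myl7/Myl2 under Yap siRNA, -1.66 to 0.47 for Myl7/Myl2 in the double knockdown, -0.16 to 0.0949 for Tnni1/Tnni3 and -0.10 to 0.0674 for Nppb/Nppa under Wwtr1 siRNA. Myh7/Myh6 fell in every alternative. Of the single members, 1921 values kept their side of the threshold, 44 gained a call, 74 lost one and no called value reversed. The count tests of edgeR and DESeq2 were not run, because what a unit of the deposited values stands for was not tested. Zeros of low genes such as Corin, and near-identical genes of the myosin and actin families, limit single values.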
